A study of Homo sapiens with 12 samples.

Results

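DNA is copied once per cell cycle by a fixed order of events, and 37 genes that act in it were followed here in 2 retinoblastoma cell lines exposed to THZ1. They were chosen by name as rows of a count table with 27505 rows, all 37 were found, and all 37 passed the filter on low counts. The members fall into 6 steps, with 3 genes of S phase entry, 4 of licensing, 12 of the helicase, 11 of the polymerases and their partners, 4 of nucleotide supply and 3 of the chromatin laid down behind the fork. Y79 and WERI-Rb-1 (written WERI) are established human lines grown from retinoblastomas, the childhood tumour of the retina, and the labels give the genotype of both as WT, without further detail. The 4 groups were Y79 with 50 nM THZ1, Y79 with 0.1% DMSO, WERI with 50 nM THZ1 and WERI with 0.1% DMSO, each kept for 12 h in 3 cultures and read by RNA sequencing of total RNA. THZ1 is a covalent inhibitor of CDK7, a kinase of the general transcription machinery that also activates cell cycle kinases, and it binds CDK12 and CDK13 as well. DMSO is its solvent, and the labels do not say whether the THZ1 cultures held the same amount of DMSO. With a single line of each name, a property of a line and of its culture history cannot be told apart.

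In G1 the origin recognition complex, CDC6 and CDT1 load the ring of MCM2 to MCM7 onto DNA, which licenses an origin. At the start of S phase cyclin E with CDK2, and the kinase CDC7, switch the loaded ring on by adding CDC45 and the GINS complex, and polymerases alpha, delta and epsilon then copy the strands with the sliding clamp PCNA. Most of these genes are textbook targets of E2F transcription factors, which the RB protein holds back, and both lines are known for having lost that protein.

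Library totals lay between 29677575 and 37433574 counts. Levels below are counts-per-million with TMM scaling (CPM), a method that takes most genes as unchanged, and changes are log2 fold changes with their standard error (SE) from 1 edgeR model of all 12 libraries, called at an adjusted p under 0.05 over all features tested. Where a direction is given with no other scaling named, it is that under TMM. The choice of scale matters here, because the 13 mRNAs of the mitochondrial genome took 8.44% to 9.73% of counts in Y79 with THZ1 and 3.94% to 4.46% in Y79 with DMSO, and 9.79% to 11.2% in WERI with THZ1 and 3.74% to 3.94% in WERI with DMSO. The median log2 change over all 14865 genes tested was -0.09 in Y79 and -0.11 in WERI with TMM, -0.65 and -0.56 with library size alone, and -1.80 and -2.01 relative to the mitochondrial mRNAs. The median of the members lay 0.67 below that of all genes in Y79, and 0.54 below it in WERI, on each of these 3 scales. All 8 photoreceptor lineage markers looked for had counts, with summed levels of 664 to 762 CPM in Y79 with THZ1, 1243 to 1246 CPM in Y79 with DMSO, 1034 to 1069 CPM in WERI with THZ1 and 1942 to 2051 CPM in WERI with DMSO. A list of 6 glial and pigment epithelium markers summed to 562 to 755 CPM in Y79 with THZ1, 225 to 236 CPM in Y79 with DMSO, 178 to 220 CPM in WERI with THZ1 and 85.2 to 89.4 CPM in WERI with DMSO, most of it SERPINF1, while RLBP1 and AQP4 were under 1 CPM in every library. For 6 stromal, vessel and blood markers the sum was 3.24 to 4.66 CPM in Y79 with THZ1, 2.03 to 2.99 CPM in Y79 with DMSO, 53.9 to 54.8 CPM in WERI with THZ1 and 24.6 to 27.9 CPM in WERI with DMSO, most of it COL1A1. Of the lineage markers OTX2, THRB and CRX were lower with THZ1 in both lines, whereas RCVRN had 36.0 to 56.1 CPM in Y79 with THZ1, 17.4 to 20.2 CPM in Y79 with DMSO, 293 to 340 CPM in WERI with THZ1 and 153 to 161 CPM in WERI with DMSO, and PDE6H was likewise higher with THZ1 in every library. The lineage sum was thus lower, with markers moving both ways, and the other sums were higher in the THZ1 libraries of both lines, and their part in the results was not tested. Replicate 2 of Y79 with THZ1 stood apart from replicates 1 and 3 of that group, with a TMM factor of 0.696 against 0.790 and 0.801. The mean chi-square per gene between 2 libraries, which is 1 for sampling noise, was 72.9 and 74.4 for its pairs. For replicates 1 and 3 it was 13.4, and the largest value in another group was 13.8.

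Most replication genes were lower after THZ1, but a minority was higher, and it included subunits of complexes whose other subunits fell. In Y79, 25 members were lower, 10 higher and 2 not called, against 38.5% of all genes lower and 29.9% higher. In WERI, 26 members were lower and 11 higher, against 37.2% of all genes lower and 27.7% higher. The numbers of higher members were thus close to what the shares over all genes give, while those of lower members were above them. Both lines lowered the same 25 genes and raised the same 9, which are CDC45, POLA1, POLE, POLD1, RFC3, LIG1, RRM1, RRM2 and TYMS, while 30.9% of all genes were lower and 21.8% higher in both lines. A fall of at least 2-fold was called for 14 members in Y79 and 15 in WERI, against 19.9% and 16.7% of all genes. A rise of that size was called for 3 members in Y79 and 2 in WERI, against 14.4% and 11.3% of all genes, and these counts are small. With 1 library left out, the log2 change in Y79 was as low as 0.89 for TYMS and 0.998 for POLD1. That of LIG1 in WERI was as low as 0.99, where a log2 change of 1 is 2-fold. The rises depend on the scale. With library size alone 5 members were still called higher in Y79 and 6 in WERI, as were 2175 and 2221 of all 14865 genes. Relative to the mitochondrial mRNAs all 37 were called lower in both lines, as were 12188 genes in Y79 and 13328 in WERI. A rise below therefore means higher relative to the typical gene. In a culture, fewer cells in S phase and less of an mRNA in each cell cannot be told apart.

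**Figure D1:**
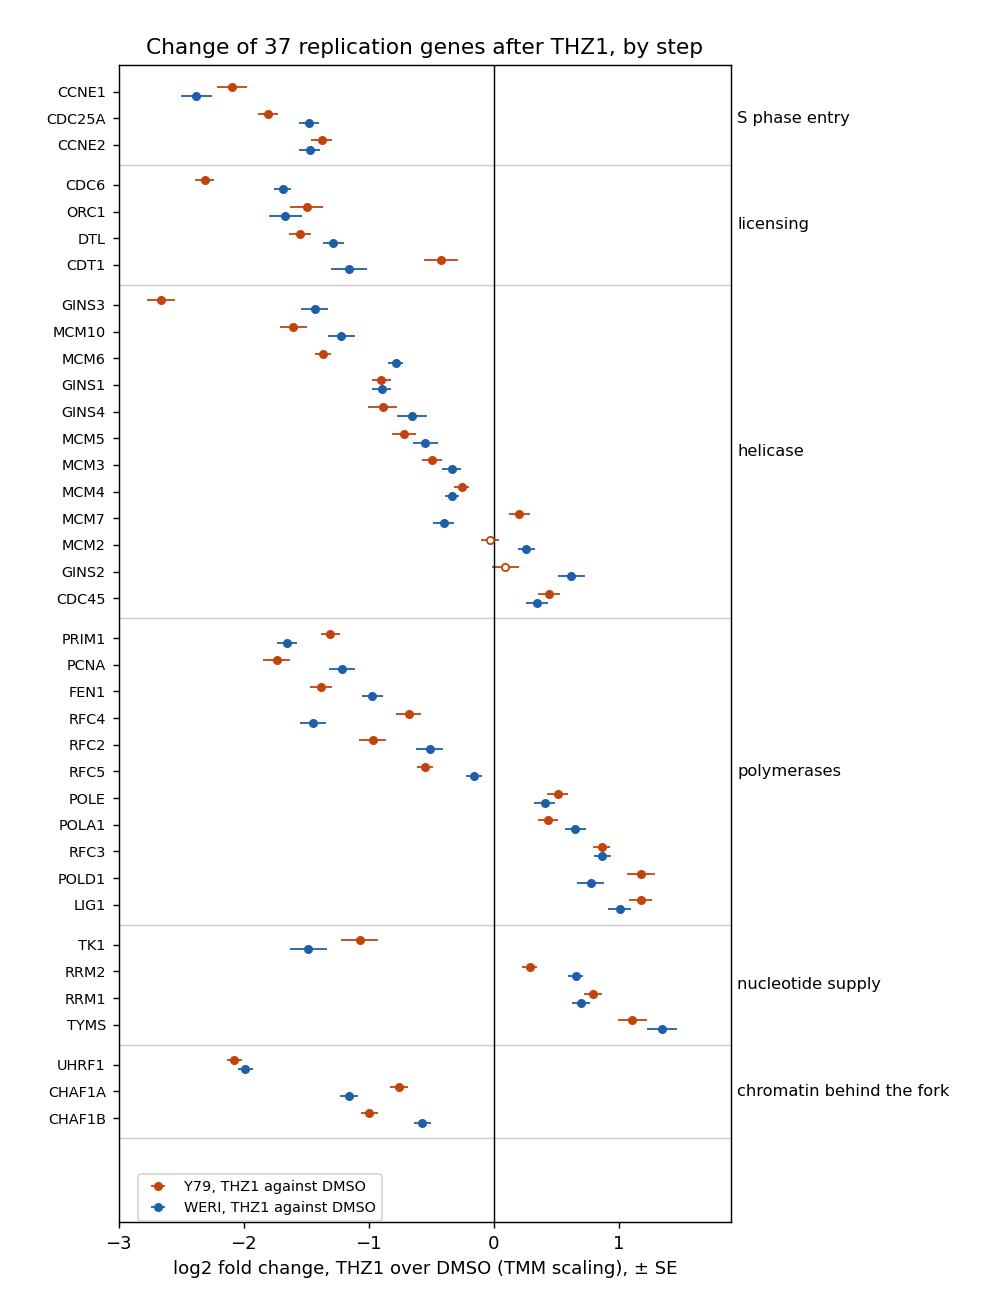
Log2 fold change of each of the 37 members, THZ1 over DMSO with TMM scaling, in Y79 (orange) and WERI (blue), ordered within each step. Bars are SE from the edgeR model of 3 cultures per group, filled points are called at an adjusted p under 0.05, and the open points are MCM2 and GINS2 in Y79. All members of S phase entry, licensing and chromatin lie left of 0, and the members right of 0 in both lines belong to the helicase, polymerase and nucleotide supply steps.

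The steps differed in how much of their RNA was left. The summed level of the S phase entry genes was 51.7 ± 1.66 CPM in Y79 with THZ1 and 164 ± 4.37 CPM with DMSO (SD, n = 3 each), so 31.6% was left, and in WERI 33.6% was left. For licensing genes 40.0% was left in Y79 and 35.2% in WERI, and for chromatin genes 37.9% and 39.5%. Helicase genes kept 81.6% of their summed level in Y79 and 81.9% in WERI. For the polymerase step the sum with THZ1 was 103% of that with DMSO in Y79 and 99.9% in WERI, although 6 of its 11 genes fell and 5 rose in each line. The Y79 mean with THZ1 includes replicate 2, which was highest at 1623 CPM, beside 1405 and 1526 CPM in replicates 1 and 3. Nucleotide supply genes reached 154% in Y79 and 165% in WERI. Over all 37 genes the sum was 89.4% and 87.6% of that with DMSO. Sums weigh abundant and long mRNAs most, so they describe the pool of RNA and not the typical gene. With library size alone the shares were smaller for every step, at 104% in Y79 and 121% in WERI for nucleotide supply and 69.4% and 73.2% for the polymerases. Relative to mitochondrial mRNAs no step was above its DMSO level, with 46.9% in Y79 and 44.4% in WERI for nucleotide supply and 9.62% and 9.05% for S phase entry.

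**Figure D2:**
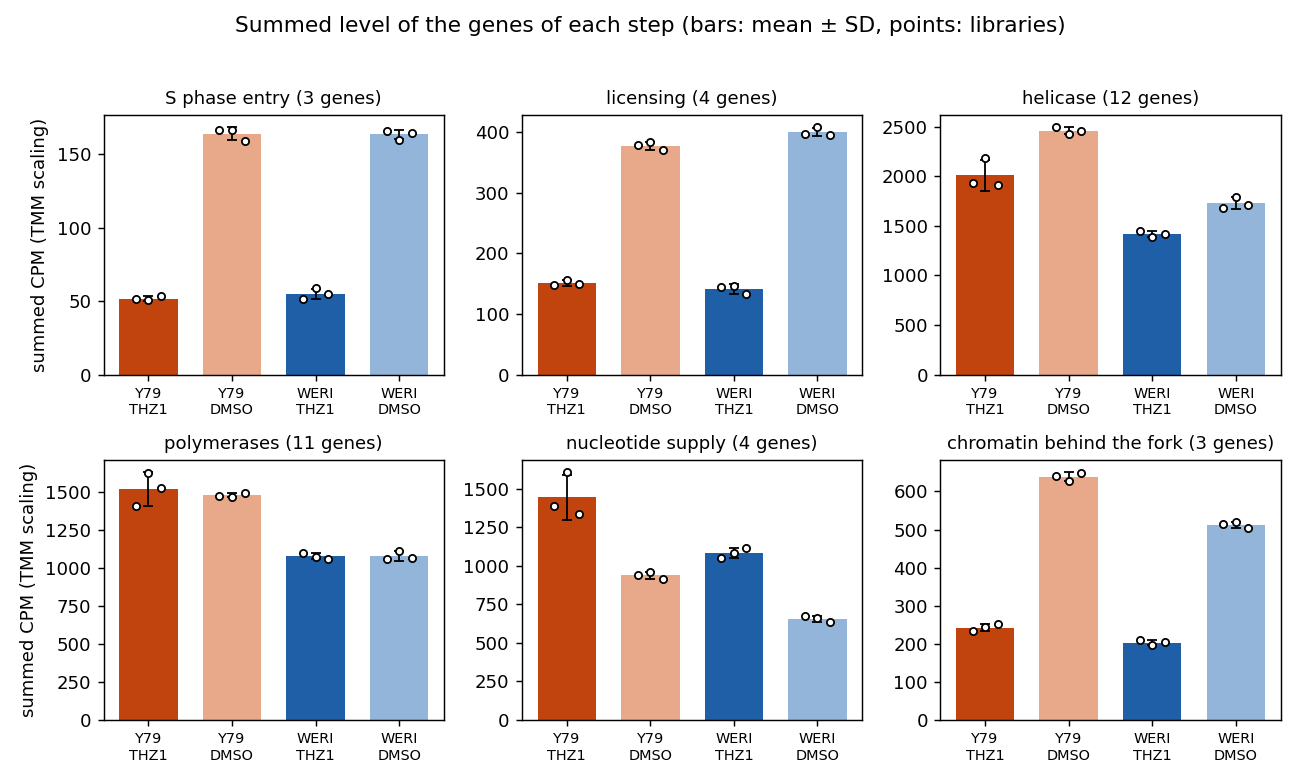
Summed CPM (TMM scaling) of the genes of each step in the 4 groups, with Y79 in orange, WERI in blue and THZ1 in the darker shade. Bars are means, error bars SD and open points the 3 libraries of a group. Sums were lower with THZ1 for S phase entry, licensing and chromatin, of like size for the polymerases, and higher for nucleotide supply, where the Y79 libraries with THZ1 reached 1335 to 1606 CPM and those with DMSO 915 to 961 CPM.

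Because E2F is the best known shared regulator of these genes, the RefSeq promoter windows (GRCh38.p14, 250 bases before to 50 after a start) were searched for the words TTTCGCGC, TTTGGCGC, TTTCCCGC and TTTGCCGC on both strands. Of the 37 members 33 had a window, and 18 of these (54.5%) held at least 1 word, against 6.25% of 11471 tested genes with a window and 3.99% of all 27305 genes in the table. The words were found at genes that moved in opposite directions, in 5 of 9 members higher in both lines and in 10 of 21 members lower in both lines that had a window. CCAAT was found in 63.6% of the members and 42.7% of the tested genes, and TATAAA in 9.09% and 8.65%. A match describes the letters and does not show that a factor binds there. Whether E2F had a part in the falls or the rises was not tested. Stretches from 150 bases before the start to 25 from the start on are shown as picked examples. They come from 3 genes that fell in both lines and 2 that rose. They run 5′ to 3′ along the gene's strand, and capitals mark the E2F word or its complement.
UHRF1 (fell, chr19:4909351-4909525, plus strand): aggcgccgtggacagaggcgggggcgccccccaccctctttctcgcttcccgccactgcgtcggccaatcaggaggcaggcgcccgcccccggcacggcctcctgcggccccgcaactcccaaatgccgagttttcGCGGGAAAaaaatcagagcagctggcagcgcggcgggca
PCNA (fell, chr20:5126598-5126772, minus strand): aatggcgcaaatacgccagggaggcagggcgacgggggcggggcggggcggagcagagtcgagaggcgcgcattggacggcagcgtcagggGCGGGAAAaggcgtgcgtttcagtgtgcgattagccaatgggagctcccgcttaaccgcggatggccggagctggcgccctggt
CDC6 (fell, chr17:40287729-40287903, plus strand): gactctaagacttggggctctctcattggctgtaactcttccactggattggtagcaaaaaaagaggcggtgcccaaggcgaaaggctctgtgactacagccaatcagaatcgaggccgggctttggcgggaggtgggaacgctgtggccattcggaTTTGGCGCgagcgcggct
TYMS (rose, chr18:657503-657677, plus strand): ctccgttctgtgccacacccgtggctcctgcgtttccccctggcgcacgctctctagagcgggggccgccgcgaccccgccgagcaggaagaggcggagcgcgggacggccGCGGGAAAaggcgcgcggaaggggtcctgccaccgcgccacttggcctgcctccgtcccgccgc
LIG1 (rose, chr19:48170320-48170494, minus strand): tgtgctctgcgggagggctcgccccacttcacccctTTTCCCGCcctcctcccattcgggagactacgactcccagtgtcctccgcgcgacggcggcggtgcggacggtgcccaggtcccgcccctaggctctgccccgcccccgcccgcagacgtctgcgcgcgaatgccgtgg
UHRF1, PCNA and TYMS carry the same word, TTTCCCGC, on the opposite strand, LIG1 carries it on its own strand, and CDC6 has TTTGGCGC just inside the transcribed part.

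All 3 genes of S phase entry fell in both lines by at least 2-fold. They encode cyclins E1 and E2, the partners of CDK2, and CDC25A, the phosphatase that removes an inhibitory phosphate from CDK2. CCNE1 (ENSG00000105173, chr19:29811898-29824308 on GRCh38, plus strand) had 7.10, 6.93 and 6.73 CPM in Y79 with THZ1, against 29.97, 29.2 and 29.3 CPM in Y79 with DMSO. In WERI it had 5.07, 4.81 and 3.55 CPM with THZ1, against 22.2, 23.7 and 23.9 CPM with DMSO. The groups were far apart, and the log2 change was -2.09 ± 0.120 in Y79 (SE, adjusted p = 3.16e-09) and -2.38 ± 0.122 in WERI (adjusted p = 2.22e-09), the largest fall of any member in WERI. CCNE2 (ENSG00000175305, chr8:94879770-94896678, minus strand) had 25.03, 23.7 and 24.7 CPM in Y79 with THZ1 and 65.7, 65.0 and 60.0 CPM with DMSO. In WERI its levels were 19.9, 23.3 and 24.6 CPM with THZ1 and 65.3, 60.8 and 62.1 CPM with DMSO. Its log2 change was -1.38 ± 0.0849 in Y79 (adjusted p = 6.17e-09) and -1.47 ± 0.0847 in WERI (adjusted p = 5.57e-09). The difference between the lines was 0.09 ± 0.118 for CCNE2 and was not called (adjusted p = 0.650). Of its exon bases 37.0% overlap INTS8 on the other strand, the kit does not keep strand, and INTS8 itself changed by -1.37 in Y79 and -0.83 in WERI, so reads of the overlap could belong to either. CDC25A changed by -1.80 ± 0.0820 in Y79 and -1.48 ± 0.0801 in WERI.

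The 4 licensing genes also fell in both lines. CDC6, the loader that brings MCM rings to the origin recognition complex, lost the most. CDC6 (ENSG00000094804, chr17:40287633-40304657, plus strand) had 21.7, 20.1 and 22.4 CPM in Y79 with THZ1 and 106, 111 and 102 CPM with DMSO. WERI had 68.3, 70.7 and 61.9 CPM with THZ1 and 216, 214 and 217 CPM with DMSO, so every WERI library with THZ1 lay above the Y79 libraries with THZ1 and below those with DMSO of both lines. The log2 change was -2.31 ± 0.0731 in Y79 (adjusted p = 2.62e-11) and -1.69 ± 0.0694 in WERI (adjusted p = 4.24e-10). CDT1 (ENSG00000167513, chr16:88803213-88809258, plus strand), the second loader, whose protein is destroyed once S phase begins, had 56.9, 84.3 and 60.1 CPM in Y79 with THZ1 and 90.7, 86.8 and 91.2 CPM with DMSO. WERI had 18.9, 14.5 and 15.3 CPM with THZ1 and 34.5, 40.4 and 33.6 CPM with DMSO. In Y79, replicate 2 with THZ1 lay just under the lowest control library, and the change of -0.42 ± 0.136 (adjusted p = 0.0151) was no longer called without replicate 1 of that group (-0.33, adjusted p = 0.0658) or without replicate 3 (-0.35, adjusted p = 0.0588), nor with RLE factors or DESeq2. In WERI CDT1 changed by -1.16 ± 0.142 (adjusted p = 7.31e-06). ORC1, the subunit of the origin recognition complex that comes and goes with the cycle, changed by -1.50 ± 0.130 in Y79 and -1.67 ± 0.132 in WERI. DTL, which directs the destruction of CDT1 at replicating DNA, changed by -1.55 ± 0.0867 in Y79 and -1.28 ± 0.0858 in WERI.

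The helicase step was mixed. Of its 12 genes 8 fell, 2 rose and 2 were not called in Y79, and 9 fell and 3 rose in WERI. Among the 6 subunits of the MCM ring, MCM6 had the lowest log2 change, at -1.36 ± 0.0625 in Y79 and -0.78 ± 0.0617 in WERI. MCM5, MCM3 and MCM4 changed by -0.71, -0.49 and -0.26 in Y79 and by -0.55, -0.33 and -0.33 in WERI, all called lower. MCM5 (ENSG00000100297, chr22:35400063-35425430, plus strand) had 129, 166 and 125 CPM in Y79 with THZ1 and 231, 220 and 238 CPM with DMSO. WERI had 71.1, 70.0 and 63.5 CPM with THZ1 and 94.3, 101 and 103 CPM with DMSO, so its groups did not overlap in either line. MCM2 did not pass the test in Y79, at -0.03 ± 0.0702 (adjusted p = 0.752), and was higher in WERI, at 0.26 ± 0.0703 (adjusted p = 0.00508), where with library size alone it was called lower (-0.19). MCM7 was higher in Y79, at 0.21 ± 0.0835 (adjusted p = 0.0448), and lower in WERI, at -0.40 ± 0.0838 (adjusted p = 0.000912). The rise of MCM7 in Y79 was not called without any 1 of the 3 Y79 control libraries (0.19 to 0.21, adjusted p 0.0916 to 0.117) or without replicate 2 with THZ1 (0.07, adjusted p = 0.244), nor with no filter on low counts (0.18, adjusted p = 0.102) or with Y79 fitted alone (0.20, adjusted p = 0.132). With library size alone MCM7 was called lower in both lines (-0.37 in Y79 and -0.85 in WERI).

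CDC45 and the GINS subunits, which turn the MCM ring into the active helicase, did not move together. CDC45 (ENSG00000093009, chr22:19479459-19520612, plus strand) had 72.1, 92.7 and 76.3 CPM in Y79 with THZ1 and 60.4, 60.0 and 56.8 CPM with DMSO. WERI had 57.3, 54.8 and 54.1 CPM with THZ1 and 41.8, 43.9 and 45.0 CPM with DMSO. CDC45 was thus higher with THZ1 in every library, by 0.44 ± 0.0862 in Y79 (adjusted p = 0.000441) and 0.35 ± 0.0866 in WERI (adjusted p = 0.00325), whereas with library size alone it was lower and not called (-0.13 and -0.10). GINS3 (ENSG00000181938, chr16:58295080-58406144, plus strand) had 4.76, 6.01 and 4.57 CPM in Y79 with THZ1 and 33.2, 31.6 and 31.7 CPM with DMSO. In WERI it had 10.6, 10.3 and 11.7 CPM with THZ1 and 28.5, 28.9 and 30.4 CPM with DMSO. This was the largest fall of any member in Y79, at -2.66 ± 0.112 (adjusted p = 2.35e-10), beside -1.43 ± 0.104 in WERI (adjusted p = 4.46e-08). GINS2 (ENSG00000131153, chr16:85676198-85690073, minus strand) had 73.5, 98.5 and 73.4 CPM in Y79 with THZ1 and 79.5, 76.0 and 74.1 CPM with DMSO, so the groups overlapped and the change of 0.09 ± 0.106 was not called (adjusted p = 0.461). In WERI GINS2 had 27.1, 29.3 and 31.1 CPM with THZ1 and 20.4, 18.3 and 18.2 CPM with DMSO, a rise of 0.62 ± 0.110 (adjusted p = 0.000210) that was not called with library size alone (0.17). GINS1 changed by -0.90 in both lines, GINS4 by -0.89 in Y79 and -0.65 in WERI, and MCM10, a helicase activator, by -1.60 in Y79 and -1.22 in WERI, all called lower.

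The polymerase step split within complexes. POLA1, the catalytic subunit of the polymerase that starts each new strand, rose by 0.44 ± 0.0818 in Y79 and 0.65 ± 0.0821 in WERI, whereas with library size alone it was not called in either line (-0.12 and 0.21). Its partner PRIM1, the primase that lays the RNA primer, fell in both. PRIM1 (ENSG00000198056, chr12:56731596-56752373, minus strand) had 27.4, 26.6 and 26.7 CPM in Y79 with THZ1 and 67.4, 67.7 and 64.8 CPM with DMSO. PRIM1 levels in WERI were 13.3, 15.7 and 14.2 CPM with THZ1 and 44.4, 46.8 and 44.6 CPM with DMSO. The libraries of each group lay close together, and PRIM1 changed by -1.31 ± 0.0752 in Y79 (adjusted p = 3.25e-09) and -1.65 ± 0.0770 in WERI (adjusted p = 1.03e-09). POLE and POLD1, the catalytic subunits of the leading and lagging strand polymerases, rose by 0.51 ± 0.0844 and 1.18 ± 0.109 in Y79 and by 0.41 ± 0.0844 and 0.78 ± 0.108 in WERI. With library size alone POLD1 was still called higher in Y79 (0.60) and WERI (0.33), while POLE was at -0.04 in both and not called.

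The clamp and its loader were also divided. PCNA changed by -1.73 ± 0.107 in Y79 and -1.21 ± 0.106 in WERI. Of the small loader subunits, RFC3 rose by 0.86 ± 0.0691 in Y79 and 0.87 ± 0.0698 in WERI and was still called higher with library size alone (0.29 and 0.42), while RFC2 changed by -0.97 and -0.51 and RFC4 by -0.68 and -1.44, all called lower. RFC4 (ENSG00000163918, chr3:186789880-186807058, minus strand) had 34.9, 46.3 and 35.6 CPM in Y79 with THZ1 and 64.4, 63.0 and 59.7 CPM with DMSO. WERI had 17.1, 17.01 and 18.6 CPM with THZ1 and 45.6, 50.4 and 47.3 CPM with DMSO. No library with THZ1 reached the level of a control library of its line. RFC5 changed by -0.55 ± 0.0640 in Y79 (adjusted p = 3.67e-06) and by -0.15 ± 0.0638 in WERI, a call at an adjusted p of 0.0496 that was lost with RLE factors (-0.07, adjusted p = 0.365), with DESeq2, and when 1 of 4 WERI libraries was left out (DMSO replicates 1 and 2, THZ1 replicates 1 and 3, adjusted p 0.0880 to 0.148). FEN1, which trims the flaps of lagging strand fragments, changed by -1.38 in Y79 and -0.97 in WERI. LIG1 (ENSG00000105486, chr19:48115445-48170603, minus strand), the ligase that joins those fragments, went the other way, with 193, 259 and 209 CPM in Y79 with THZ1 and 97.8, 97.3 and 97.1 CPM with DMSO. In WERI LIG1 had 164, 159 and 160 CPM with THZ1 and 78.4, 83.8 and 78.4 CPM with DMSO. Its level was about doubled in both lines, with log2 changes of 1.18 ± 0.0903 in Y79 (adjusted p = 5.26e-08) and 1.01 ± 0.0902 in WERI (adjusted p = 3.15e-07), and it was still called higher with library size alone (0.60 and 0.56) but lower relative to the mitochondrial mRNAs (-0.53 and -0.89).

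In nucleotide supply, TYMS, RRM1 and RRM2 rose in both lines and TK1 fell, while all 4 were called lower relative to the mitochondrial mRNAs. TYMS (ENSG00000176890, chr18:657604-673578, plus strand), thymidylate synthase, had 489, 676 and 457 CPM in Y79 with THZ1 and 246, 259 and 246 CPM with DMSO. In WERI it had 363, 374 and 408 CPM with THZ1 and 158, 151 and 142 CPM with DMSO. Replicate 2 of Y79 with THZ1 was the highest library, and the log2 change was 1.11 ± 0.119 in Y79 (adjusted p = 1.50e-06) and 1.35 ± 0.119 in WERI (adjusted p = 2.93e-07), the largest rise of any member in WERI. TYMS was still called higher with library size alone (0.53 and 0.90) and was called lower relative to the mitochondrial mRNAs (-0.60 and -0.55). The exons of TYMS overlap those of ENOSF1, on the other strand, over 39.1% of their length. ENOSF1 had 853 to 1532 counts per Y79 library with THZ1, where TYMS had 11004 to 13949. In WERI with THZ1 it had 1678 to 1810 counts per library, where TYMS had 10383 to 11829. ENOSF1 itself was called higher, by 0.91 in Y79 and 0.88 in WERI. Reads of the overlap could belong to either gene, and their part in the rise of TYMS was not tested. RRM1 and RRM2, the large and small subunits of ribonucleotide reductase, rose by 0.79 ± 0.0735 and 0.29 ± 0.0609 in Y79 and by 0.70 ± 0.0734 and 0.66 ± 0.0612 in WERI, and with library size alone RRM2 was called lower in Y79 (-0.27). TK1 (ENSG00000167900, chr17:78174075-78187233, minus strand), thymidine kinase, had 27.7, 46.3 and 31.5 CPM in Y79 with THZ1 and 67.9, 72.7 and 80.4 CPM with DMSO. Levels of TK1 in WERI were 31.0, 28.8 and 33.1 CPM with THZ1 and 82.0, 92.1 and 85.4 CPM with DMSO. TK1 was thus lower with THZ1 in every library, with a log2 change of -1.07 ± 0.147 in Y79 (adjusted p = 1.93e-05) and -1.48 ± 0.147 in WERI (adjusted p = 1.00e-06). Named pseudogenes exist for RRM2, PCNA, TYMS, RFC3, RFC5 and FEN1, and the labels do not say how reads shared with them were counted.

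The 3 genes of chromatin behind the fork fell in both lines. UHRF1 (ENSG00000276043, chr19:4903080-4962154, plus strand), which brings the maintenance DNA methyltransferase to newly copied DNA, had 82.0, 81.3 and 86.3 CPM in Y79 with THZ1 and 346, 349 and 357 CPM with DMSO. In WERI it had 72.7, 67.4 and 70.6 CPM with THZ1 and 276, 286 and 274 CPM with DMSO. The change of UHRF1 was close to 4-fold in each line, at -2.07 ± 0.0611 in Y79 (adjusted p = 1.61e-11) and -1.99 ± 0.0610 in WERI (adjusted p = 6.46e-11). CHAF1A and CHAF1B are the large and middle subunits of chromatin assembly factor 1, which deposits histones on new DNA. CHAF1B (ENSG00000159259, chr21:36385378-36419015, plus strand) had 65.8, 66.5 and 62.7 CPM in Y79 with THZ1 and 134, 126 and 129 CPM with DMSO. WERI had 88.4, 78.0 and 81.0 CPM of CHAF1B with THZ1 and 127, 123 and 117 CPM with DMSO. Its log2 change was -0.99 ± 0.0668 in Y79 (adjusted p = 1.38e-08) and -0.57 ± 0.0660 in WERI (adjusted p = 4.07e-06), and that of CHAF1A was -0.76 ± 0.0710 and -1.16 ± 0.0720.

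**Figure D3:**
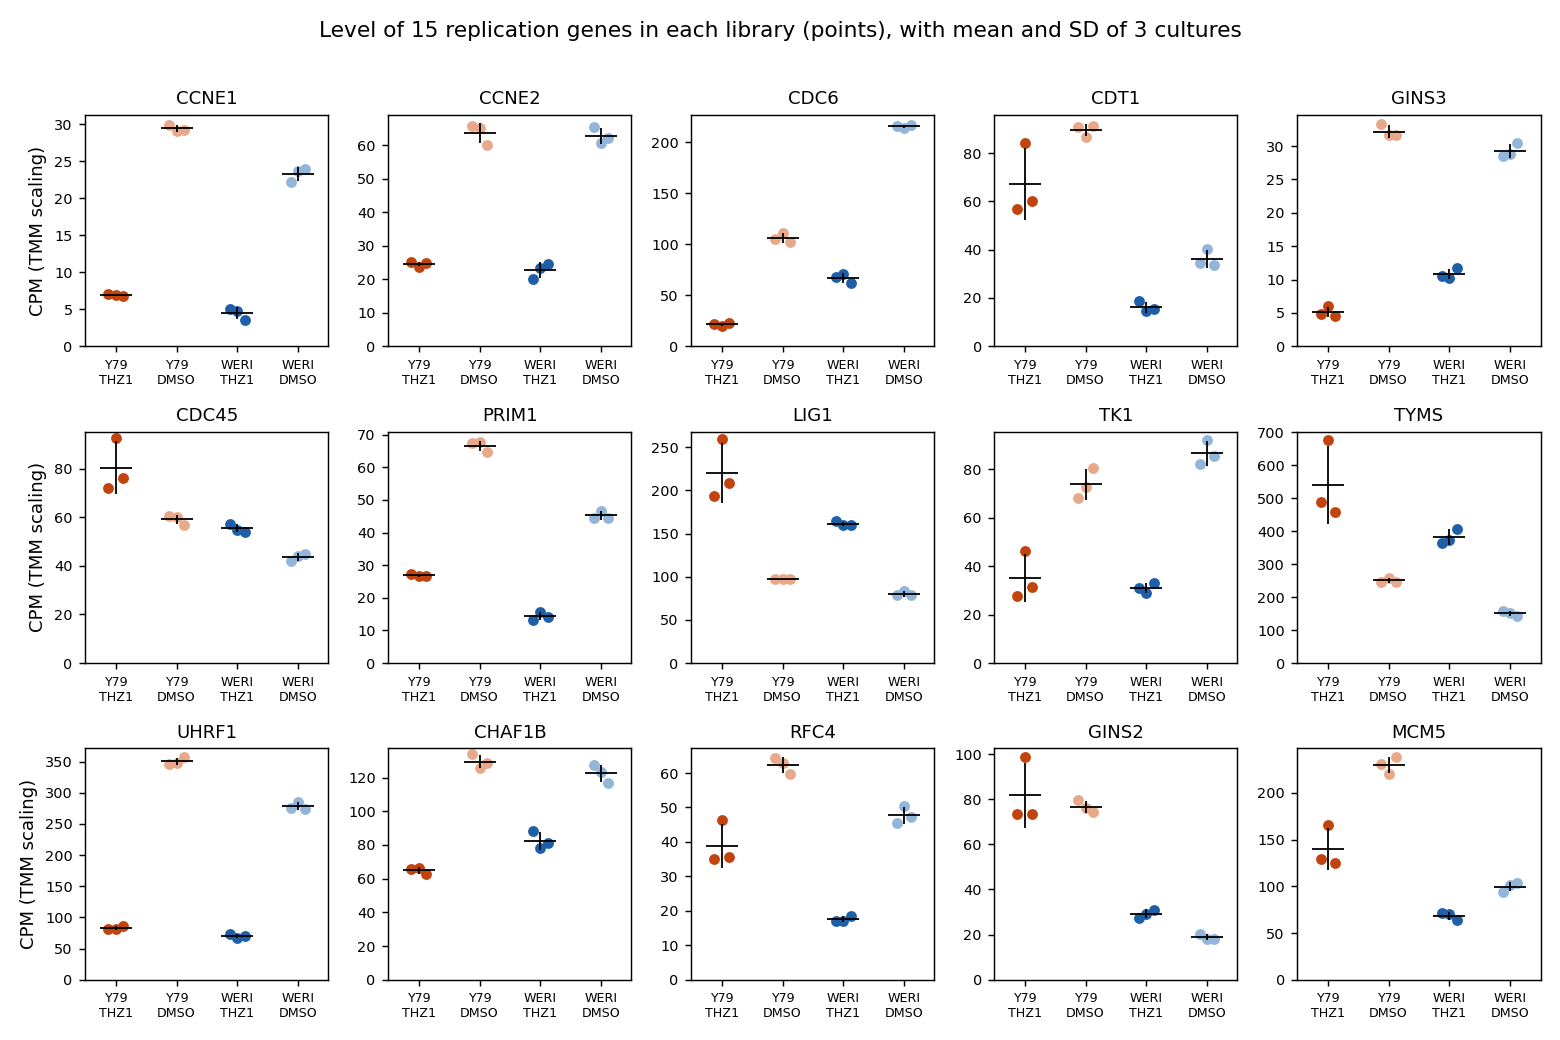
CPM (TMM scaling) of 15 members in each library, in the order Y79 with THZ1, Y79 with DMSO, WERI with THZ1 and WERI with DMSO. Points are the 3 libraries of a group, horizontal marks their mean and vertical bars the SD, and each vertical axis starts at 0. CDC45, LIG1 and TYMS are higher with THZ1 in both lines, GINS2 overlaps between the Y79 groups, and the other 11 genes are lower with THZ1, with 1 high library (replicate 2 of Y79 with THZ1) visible for CDT1, TK1, MCM5 and RFC4.

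The order of the members by change was similar in both lines, while the size of the change differed between them for 14 members. Across the 37 members the log2 changes in Y79 and WERI had a Pearson correlation of 0.916, beside 0.680 across all 14865 genes. By rank (Spearman) the values lay closer together, at 0.903 for the members and 0.779 for all genes. These correlations describe genes that share the same 12 libraries and are not independent. The genes tested include some with fewer counts than any member, and genes matched to the members by level were not compared. The difference between the lines (Y79 minus WERI) was called for 14 members, 5 higher and 9 lower, while 22.0% of all genes were called, 8.74% higher and 13.2% lower. GINS3 differed most, at -1.23 ± 0.150 (adjusted p = 0.000144), since it fell to 5.11 ± 0.779 CPM in Y79 with THZ1, against 32.2 ± 0.922 with DMSO, and to 10.8 ± 0.730 CPM in WERI with THZ1, against 29.3 ± 1.00 with DMSO (SD, n = 3 each). RFC4 fell less in Y79, with a difference of 0.76 ± 0.144 (adjusted p = 0.00250), and MCM7 had a difference of 0.60 ± 0.118 (adjusted p = 0.00328), with directions that depend on the scale, as given above. These 3 differences in size were called under each other setting and with any 1 library left out. CDC6 fell further in Y79, by a difference of -0.62 ± 0.0980 (adjusted p = 0.000737), which was not called relative to the mitochondrial mRNAs (-0.45, adjusted p = 0.0746). CDT1 fell less in Y79, by a difference of 0.74 ± 0.196 (adjusted p = 0.0182), which was lost without WERI replicate 2 with DMSO, 2 with THZ1 or 3 with THZ1 (0.65 to 0.69, adjusted p 0.0534 to 0.0570). For 23 members no difference was called, among them UHRF1 (-0.09 ± 0.0834), GINS1 (-0.00 ± 0.108) and RFC3 (-0.01 ± 0.0971), which does not show that the lines changed alike. Without replicate 2 of Y79 with THZ1 the count of members called lower was 15 in place of 9, and over all genes 3026 in place of 1965.

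**Figure D4:**
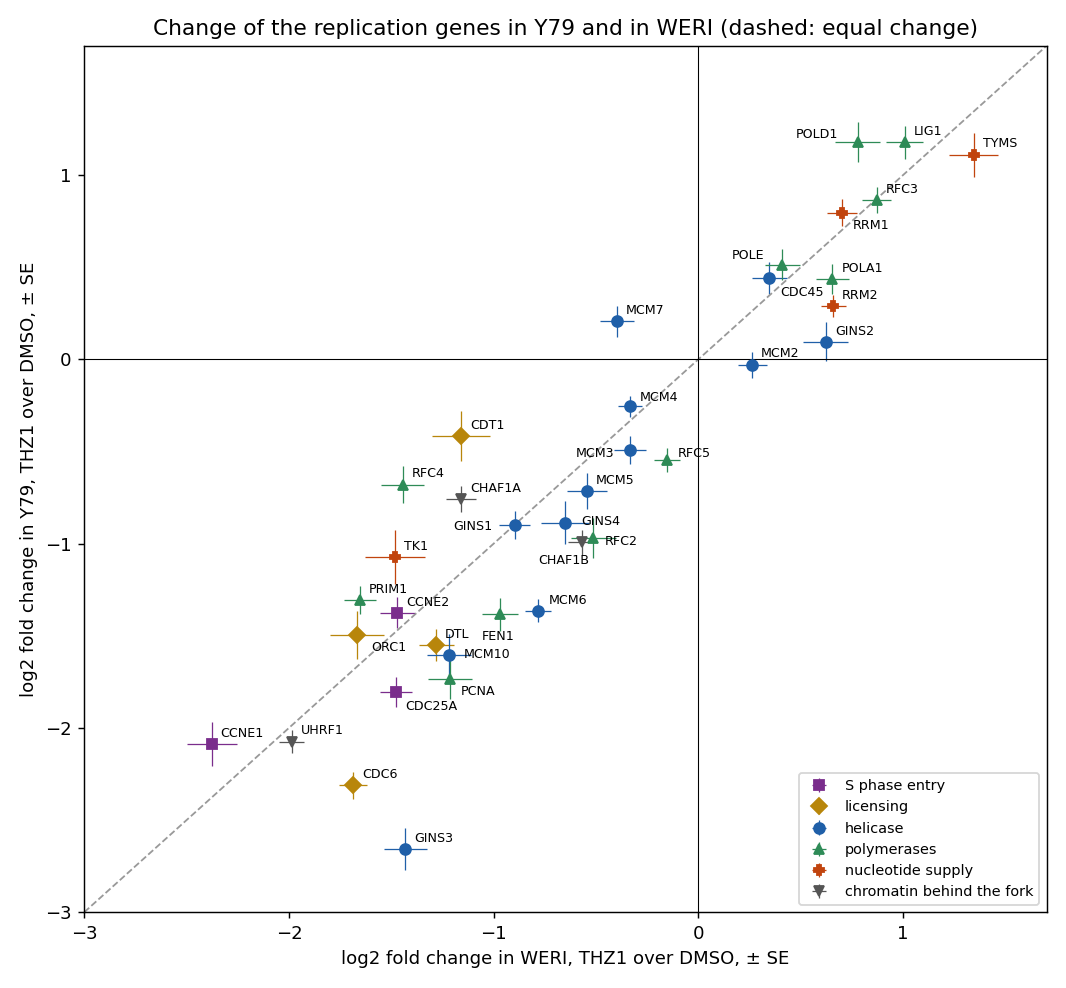
Log2 fold change, THZ1 over DMSO, in Y79 (vertical axis) against WERI (horizontal axis) for the 37 members, with SE in both directions and a symbol for each step. The dashed line marks equal change. Members lie along it from CCNE1, UHRF1, CDC6 and GINS3 at the lower left to LIG1, POLD1 and TYMS at the upper right, with MCM7, CDT1 and RFC4 above it and GINS3, CDC6 and MCM6 below it.

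In DMSO, most members were more abundant in Y79 than in WERI. The comparison gave 31 members higher in Y79, 1 lower and 5 not called, while 64.9% of all genes were called, 32.3% higher and 32.6% lower, with a median log2 difference of 0.40 beside 0.00 for all genes. Left-out libraries moved the count of higher members to between 27 and 30. The scale mattered more, since scaling by library size left 21 higher and 3 lower, where 3641 of all 14865 genes were higher and 5732 lower. Scaling by the mitochondrial mRNAs left 10 and 3, where 2706 of all genes were higher and 6322 lower. The median of the members lay 0.40 above that of all genes with TMM and on both of these scales. GINS2 differed most, with 76.5 ± 2.70 CPM in Y79 and 19.0 ± 1.23 CPM in WERI (SD, n = 3 each), a log2 difference of 2.01 ± 0.111 (adjusted p = 2.23e-09). CDT1 had 89.6 ± 2.42 CPM in Y79 and 36.2 ± 3.65 CPM in WERI (1.31 ± 0.137, adjusted p = 1.72e-06), and MCM5 230 ± 8.95 CPM in Y79 and 99.5 ± 4.61 CPM in WERI (1.21 ± 0.0968, adjusted p = 1.06e-07). CDC6 was the member lower in Y79, with 106 ± 4.69 CPM, against 216 ± 1.43 CPM in WERI (-1.02 ± 0.0679, adjusted p = 1.50e-08). Levels per kilobase of exon used the merged length of all annotated exons of a gene, which can exceed that of the mRNA present. By this measure PCNA was the most abundant member in both lines, at 221 ± 1.16 CPM per kb in Y79 and 159 ± 3.66 in WERI, followed by MCM3 at 120 ± 1.80 and 101 ± 4.33. GINS4 was the least abundant, at 5.83 ± 0.0791 CPM per kb in Y79 and 3.51 ± 0.0994 in WERI, with GINS3 next at 6.30 ± 0.181 and 5.73 ± 0.197, so the span between members of one machine was wide. Without division by length, CCNE1 was lowest in Y79, at 29.5 ± 0.442 CPM, and GINS2 in WERI, at 19.0 ± 1.23 CPM.

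A wider list of 59 other replication genes held members of both directions. In Y79, 33 were lower, 15 higher and 11 not called, where 38.5% of all genes were lower and 29.9% higher. In WERI, 28 were lower, 17 higher and 14 not called, where 37.2% of all genes were lower and 27.7% higher, so the numbers of higher genes were close to what these shares give. Their median log2 change was -0.30 in Y79 and -0.23 in WERI. In Y79 the lowest was CHTF8 (-2.85 ± 0.0933) and the highest CHTF18 (1.83 ± 0.113), which encode partner subunits of an alternative clamp loader. In WERI the lowest was ASF1B (-2.57 ± 0.110), a histone chaperone that hands histones to chromatin assembly factor 1, and the highest CMPK1 (1.45 ± 0.0964), a nucleotide kinase. Of the 9 further S phase entry genes 6 were lower and 2 higher in Y79, and 5 lower and 2 higher in WERI. The lowest was DBF4 (-1.79 in Y79 and -1.38 in WERI) and the highest RECQL4 (1.15 and 0.68). CDK2, the partner of cyclin E, was called higher, by 0.19 ± 0.0670 in Y79 and 0.40 ± 0.0663 in WERI. Of the 6 further licensing genes 5 were lower in Y79 and 5 in WERI, with 0 and 1 higher. Of the 9 further nucleotide supply genes 3 were lower and 3 higher in Y79, and 3 lower and 5 higher in WERI. The lowest of these in both lines was RRM2B, the other small subunit of ribonucleotide reductase, at -0.89 ± 0.111 in Y79 and -0.95 ± 0.109 in WERI, opposite to RRM2. It was singled out after its values were seen. Among the 8 further chromatin genes 5 were lower and 2 higher in Y79, and 4 lower and 2 higher in WERI.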

How the data were processed

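Total RNA of 12 cultures was sequenced with a NEBNext Ultra kit, per the labels, which does not keep strand. The authors deposited whole-number counts per gene, and the submitters' processing notes name Cufflinks and the build GRCh38; the labels and headers name neither the aligner nor the way reads were counted. Here R 4.3.3 with edgeR 4.0.16 was used (filterByExpr, TMM factors, robust glmQLFit with 1 mean per group, glmQLFTest, two-sided), on 18844 features of which 14865 are Ensembl genes. P-values were adjusted by Benjamini-Hochberg over all features of a contrast, and SE is the absolute log2 fold change over the square root of F. Printed counts over all genes cover Ensembl genes. The script was tested on simulated data in which only a small part of the features changed, in WERI with THZ1. That test does not bear on the choice of scale. DESeq2 1.42.0, other scalings and left-out libraries are given as alternatives. Positions and exons are from GENCODE release 29. Besides CCNE2 and TYMS, other members share exon bases with another gene, and reads there could belong to either. The largest shares with 1 gene were 22.7% for MCM2, 21.2% for GINS4, 20.2% for RRM2, 14.9% for PRIM1 and 10.9% for GINS3. Python 3.11.15 with pandas 2.3.3 and matplotlib 3.10.9 made the summaries and figures.

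The members and lists were chosen with earlier results of these data known. Values in every library are given for the lowest and highest member of each step (mean over both lines), the 4 largest called line differences and the 3 largest differences in DMSO. Cultures of a group are called biological samples in the labels. No 2 libraries agreed within sampling noise. Shares of counts and levels carry counting error as well, which is small here, since members had 103 to 19663 counts per library.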

Additional observations from a re-analysis of the deposited data

Results flagged for a closer look

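The change after THZ1 differed between the lines, by the test of the difference itself (edgeR, Y79 minus WERI, log2 scale), for 14 members. The difference was positive for CDT1 (0.74), MCM7 (0.60), PRIM1 (0.35), RFC4 (0.76) and CHAF1A (0.40). It was negative for CDC6 (-0.62), MCM6 (-0.58), GINS2 (-0.53), GINS3 (-1.23), PCNA (-0.52), RFC5 (-0.39), FEN1 (-0.41), RRM2 (-0.37) and CHAF1B (-0.42). Of these 14 calls 9 were kept whichever library was left out, and 3 (MCM7, GINS3 and RFC4) were also kept under each of 7 other settings. Calls were kept in 9 of 12 fits with a library left out for CDT1, 4 for GINS2, 3 for PRIM1, 3 for PCNA and 1 for FEN1, and the highest adjusted p among them was 0.0943, for PRIM1.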

How the results depend on the processing

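With library size alone the members called higher with THZ1 numbered 5 in Y79 and 6 in WERI (all genes 2175 and 2221), and relative to mitochondrial mRNAs 0 and 0 (all genes 283 and 111 higher, 12188 and 13328 lower). For the line difference, library size alone gave 3 members and 740 genes higher, and mitochondrial scaling 1 member and 713 genes lower. In DMSO, Y79 over WERI, library size alone gave 3 members and 5732 genes lower. Mitochondrial scaling gave 10 members and 2706 genes higher, and 3 members and 6322 genes lower.

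Directions turned as follows, all values log2. Library size alone, Y79: GINS2 -0.48, RRM2 -0.27, POLE -0.043, POLA1 -0.12, MCM7 -0.37, CDC45 -0.13. Library size alone, WERI: POLE -0.038, MCM2 -0.19, CDC45 -0.10. Mitochondrial scaling, Y79: GINS2 -1.62, RFC3 -0.85, RRM2 -1.43, RRM1 -0.92, POLE -1.20, POLA1 -1.28, POLD1 -0.53, MCM7 -1.51, TYMS -0.60, CDC45 -1.27, LIG1 -0.53. Mitochondrial scaling, WERI: GINS2 -1.28, RFC3 -1.03, RRM2 -1.24, RRM1 -1.20, POLE -1.49, POLA1 -1.24, POLD1 -1.12, TYMS -0.55, MCM2 -1.64, CDC45 -1.55, LIG1 -0.89. MCM2 in Y79 was 0.076 with RLE factors, 0.073 with DESeq2 and 0.083 with Ensembl genes only. The line difference, with the same 3 settings, was 0.015, 0.014 and 0.021 for RFC3 and 0.017, 0.017 and 0.026 for GINS1. With library size alone it was -0.038 for MCM4, -0.027 for RRM1, -0.0054 for POLE, -0.019 for CCNE2 and -0.028 for CDC45, and with mitochondrial scaling 0.017 for MCM5, 0.10 for UHRF1, 0.18 for RFC3, 0.027 for MCM3 and 0.18 for GINS1. In DMSO, library size alone gave -0.14 for CCNE2, -0.081 for CHAF1B and -0.025 for GINS3, and mitochondrial scaling -0.061 for DTL, -0.040 for RRM1, -0.032 for MCM3, -0.26 for CCNE2, -0.20 for CHAF1B and -0.14 for GINS3. With library size alone and with mitochondrial scaling, the factor shifts all members of a comparison by about the same amount. What turned the values under DESeq2 and with Ensembl genes only was not tested.

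With 1 library left out, members called higher and lower ranged from 9 to 10 and 24 to 25 in Y79, stayed at 11 and ranged from 25 to 26 in WERI, ranged from 3 to 6 and 6 to 15 for the line difference (all genes 889 to 2156 higher, 1436 to 3026 lower), and from 27 to 30, with 1 lower, in DMSO. The count of 3 came without WERI replicate 2 with DMSO or 3 with THZ1. Small changes crossed 0, with a range of -0.089 to 0.16 for GINS2 in Y79, -0.046 to 0.046 for GINS1, -0.077 to 0.047 for RFC3 and -0.018 to 0.18 for CDC45 in the line difference, and -0.0044 to 0.062 for CCNE2 in DMSO. Replicate numbers did not pair the libraries, with same-number correlations of -0.09 to -0.06 in Y79 and -0.22 to -0.05 in WERI. With a replicate block 9 and 25 members were higher and lower in Y79, 11 and 25 in WERI and 4 and 7 in the line difference, where 864 genes were higher, and the calls of MCM7 in Y79 (0.20, adjusted p = 0.0852) and RFC5 in WERI (-0.15, adjusted p = 0.108) were lost. No filter on low counts and each line fitted alone moved no count by more than 1.5 times, though both lost the calls of MCM7 in Y79 and RFC5 in WERI. Depth did not limit these genes, which had at least 103 counts in every library.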
